A study of Mus musculus with 6 samples.

Results

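The Hippo pathway and its best known outputs were followed in mouse hepatocytes that were refilling an injured liver. The set held 38 genes fixed by symbol, 23 pathway components and 15 target genes of the coactivator YAP, among 35970 gene symbols in the table. All 38 were found, and TPM (each transcript's length-corrected share of its library, scaled to the same total in all libraries) were summed over the transcripts of a symbol. Of the 38, 30 had a mean of at least 1 TPM over the 6 libraries and entered the test, 20 components and 10 targets. The other 8 (Tead4, Amot, Amotl1, Ankrd1, Arhgef17, Rbms3, Fjx1 and F3) lay below it and are given by their levels.

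All mice were Fah-/-;dCas9+. They lacked the tyrosine-breakdown enzyme FAH, and they could make dCas9, a Cas9 without cutting activity that represses a gene when a guide RNA directs it there (CRISPR interference, CRISPRi). Each received 10 µg of a transposon plasmid that encoded FAH, a GFP fusion of the ribosomal protein L10a and a guide, with AAV8.TBG.PI.Cre.rBG, a virus that brings Cre under the hepatocyte promoter TBG, through the tail vein. The guide was non-targeting in 3 mice and directed against Neurl1b, an E3 ubiquitin ligase gene of the Notch pathway, in the other 3. Nitisinone, which protects Fah-/- liver and had been given at 7.5 µg/mL, was then stopped, and livers were taken after 4 weeks. Tagged ribosomes were pulled from 400 mg of whole liver lysate with an antibody to GFP, and their polyadenylated RNA was sequenced, so RNA of other cells can enter as carry-over. Neither the ages nor the sexes of the mice, nor the number of founding hepatocytes, were stated in the labels.

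In the Hippo pathway the kinases MST1 and MST2 (genes Stk4 and Stk3) with SAV1 activate LATS1 and LATS2 with MOB1. LATS kinases phosphorylate the coactivators YAP (Yap1) and TAZ (Wwtr1), which are then held in the cytoplasm or degraded. Without that phosphorylation they enter the nucleus and bind TEAD transcription factors, which switch on genes such as Ccn1, Ccn2 and Ankrd1. In liver the pathway is known for limiting organ size and hepatocyte growth, and several of its brakes, among them Lats2 and Amotl2, are YAP targets themselves.

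The targeted gene was checked first. Neurl1b stood at 1.22, 0.897 and 0.688 TPM in the non-targeting mice and at 0.295, 0.351 and 0.307 TPM in the CRISPRi mice. The groups did not overlap, and the CRISPRi mean was 33.9% of the control mean (exact two-sided permutation p = 0.1, the smallest that 3 against 3 allows). Markers of hepatocytes (9 genes, among them Alb, Ttr and Apob) summed to between 26315 and 66142 TPM in every library, far above the markers of any other liver cell type, whose sums did not exceed 146 TPM.

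Non-targeting mouse 1 stood apart from the other controls. It was the highest of the 3 controls in 67.9% of all 10598 genes tested, and its mitochondrially encoded RNA made up 0.0752% of TPM against 0.140% to 0.216% in the other 5 libraries. Among the 38 genes it was the highest control for 29. The median log2 fold change of TPM + 1 over all genes tested was 0.18, and 74% of them lay above 0, so a member's difference is to be read against that shift. With the libraries rescaled by median of ratios (each library divided by its median ratio to the geometric mean of all) the median of all genes was -0.0013, with 49.8% above 0. The scaling factors were 1.12 for non-targeting mouse 1, 0.849 and 0.838 for non-targeting mice 2 and 3, and 1.05 to 1.09 for the CRISPRi mice. Fits without non-targeting mouse 1 keep the controls whose factors lay below those of all other libraries. Non-targeting mouse 2 was unlike the rest in its hepatocyte marker sum, 66142 TPM against 26315 to 36851 TPM in the other 5 libraries. The count of members called, and the fold changes of several members, are given with and without non-targeting mouse 1.

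No member passed an adjusted p of 0.05 in limma over all genes (smallest 0.316, for Nt5e), a threshold that 0.0189% of all genes passed as higher and 0% as lower. At an unadjusted p below 0.05, 4 of 20 tested components (Tead1, Frmd6, Ajuba and Ptpn14) and 5 of 10 tested targets (Ccn2, Axl, Nt5e, Myof and Crim1) were higher in the CRISPRi mice and none was lower, against 10.1% higher and 3.19% lower over all genes. Tead1, Tead2, Frmd6, Ccn2 and Myof had a mean under 1 TPM in the controls, so they passed the filter through the CRISPRi libraries and a count over the tested members is no support by itself. F3, at a mean of 1.16 TPM in the controls and 0.568 TPM in the CRISPRi mice, was cut through the CRISPRi libraries. The lack of a lower member is therefore no support either. Without any filter, the groups did not overlap for 11 of the 38, of which 10 were higher (5 components, 5 targets) and 1, F3, was lower. The same held for 10.9% of the 21941 genes above 0 as higher and for 3.51% as lower. The median log2 fold change was 0.29 over the tested components and 0.56 over the tested targets, which became 0.10 and 0.45 with median-of-ratios scaling. Over all 23 components and all 15 targets, in the fit without a filter, the medians were 0.22 and 0.26. Under median-of-ratios scaling 9 of the 30 members were again higher and 0 lower at an unadjusted p below 0.05, against 6.44% of all genes higher and 6.66% lower. The filter was the same, so this count is no support by itself either. In the same libraries the markers of stellate cells and fibroblasts summed to 13.8 to 29.1 TPM in the controls and 34.6 to 47.6 TPM in the CRISPRi mice, and their part in the members' differences was not tested.

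**Figure D1:**
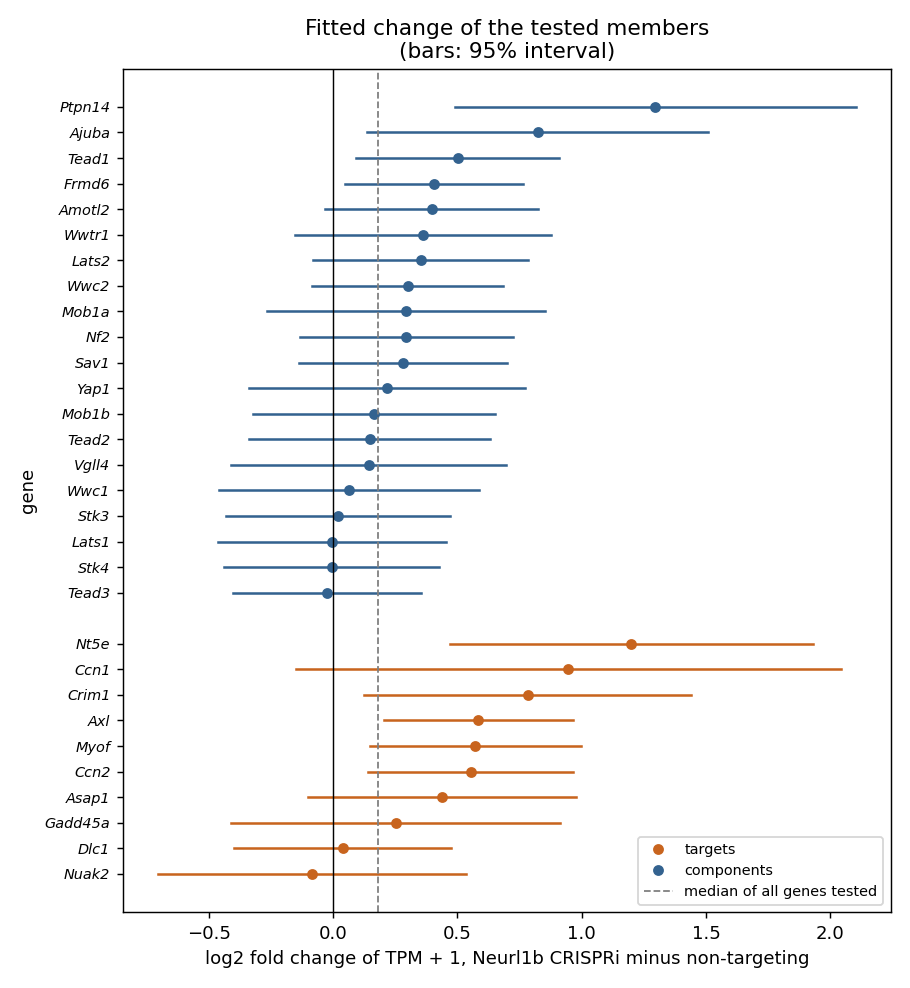
Log2 fold change of TPM + 1 (x axis) for the 30 tested genes (y axis), Neurl1b CRISPRi minus non-targeting, from limma on 3 against 3 mice, with bars for the 95% interval. Blue marks components, orange marks targets, and the dashed line is the median of all genes tested, 0.18. The intervals of Ptpn14, Ajuba, Tead1 and Frmd6 among the components, and of Nt5e, Crim1, Axl, Myof and Ccn2 among the targets, lie above 0.

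Start site sequences are shown for some of the members, picked as examples with and without the TEAD letters. TEAD factors bind the letters GGAATG, and RefSeq start windows (GRCm38.p6, 250 bases before to 50 after each start) were searched for them on both strands, as GGAATG or CATTCC. Windows existed for 29 of the 38 genes, and 15 of these held the letters in at least one window (51.7%), 11 of 20 components and 4 of 9 targets, against 16.6% of all 27025 genes with a window. Among the 4 targets with the letters (Ccn1, Ankrd1, Axl and Crim1) the groups did not overlap for 1, and among the 5 without (Nt5e, Myof, Rbms3, F3 and Gadd45a) they did not overlap in the higher direction for 3, against 10.9% of all genes above 0. Components went the other way, with groups apart in the higher direction for 3 of the 11 with the letters and 1 of the 9 without. Such small counts cannot tie the letters to a difference. The AP-1 letters TGANTCA, which can share the bases TG with the end of GGAATG, were found in 1 of the 29, F3, against 8.97% of all genes. A match is a description of the letters and not a binding site. The windows of Ccn1 (chr3:145649936-145650235, minus strand), Ankrd1 (chr19:36119795-36120094, minus strand), Crim1 (chr17:78199998-78200297, plus strand) and Ptpn14 (chr1:189728018-189728317, plus strand) are printed because they carry the letters, and that of Nt5e (chr9:88327359-88327658, plus strand) because it does not and yet belongs to the target with the smallest p. Capitals mark the TEAD letters, and each run is written 5′ to 3′ on the gene's strand.
Ccn1: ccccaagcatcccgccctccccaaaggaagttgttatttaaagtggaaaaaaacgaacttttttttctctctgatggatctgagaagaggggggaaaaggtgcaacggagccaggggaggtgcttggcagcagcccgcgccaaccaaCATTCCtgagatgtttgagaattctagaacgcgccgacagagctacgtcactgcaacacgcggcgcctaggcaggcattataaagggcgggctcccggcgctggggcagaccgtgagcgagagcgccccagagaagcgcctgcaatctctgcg
Ankrd1: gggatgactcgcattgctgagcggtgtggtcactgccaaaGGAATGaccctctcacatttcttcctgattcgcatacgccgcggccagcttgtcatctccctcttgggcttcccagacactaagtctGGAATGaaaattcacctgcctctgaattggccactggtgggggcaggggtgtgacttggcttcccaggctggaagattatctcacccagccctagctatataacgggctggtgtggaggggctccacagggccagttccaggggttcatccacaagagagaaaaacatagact
Crim1: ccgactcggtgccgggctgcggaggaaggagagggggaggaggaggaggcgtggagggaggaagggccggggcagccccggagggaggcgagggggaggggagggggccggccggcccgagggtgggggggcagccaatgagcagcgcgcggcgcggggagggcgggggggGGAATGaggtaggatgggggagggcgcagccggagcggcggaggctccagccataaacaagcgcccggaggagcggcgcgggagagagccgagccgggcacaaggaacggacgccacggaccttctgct
Ptpn14: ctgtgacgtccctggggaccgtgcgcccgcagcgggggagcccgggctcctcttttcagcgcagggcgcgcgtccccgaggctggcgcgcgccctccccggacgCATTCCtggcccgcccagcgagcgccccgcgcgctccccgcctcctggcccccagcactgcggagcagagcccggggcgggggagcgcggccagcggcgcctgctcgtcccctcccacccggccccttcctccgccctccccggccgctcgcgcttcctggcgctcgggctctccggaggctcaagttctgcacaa
Nt5e: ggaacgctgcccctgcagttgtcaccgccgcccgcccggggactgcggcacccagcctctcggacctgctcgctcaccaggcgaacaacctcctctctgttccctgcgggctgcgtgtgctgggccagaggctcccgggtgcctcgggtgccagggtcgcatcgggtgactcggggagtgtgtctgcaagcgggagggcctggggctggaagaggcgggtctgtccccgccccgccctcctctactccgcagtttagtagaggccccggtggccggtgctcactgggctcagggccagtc

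The match in Ccn1 starts 103 bases before the transcription start, that in Ptpn14 146 and that in Crim1 79 bases before it. Ankrd1, a cofactor gene and a classical YAP target, has 2 matches, 210 and 123 bases before the start. The table was made on mm39, so these positions describe the reference windows only.

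The coactivator genes overlapped between the groups, and their fold changes moved with the controls used. Yap1 stood at 20.3, 12.1 and 10.6 TPM in the non-targeting mice and at 15.6, 17.9 and 15.2 TPM in the CRISPRi mice. All 3 CRISPRi values lay inside the range of the controls, which was set at its top by non-targeting mouse 1. The log2 fold change was 0.22 with a 95% interval of -0.34 to 0.77 (limma adjusted p = 0.646), which leaves room for a difference in either direction. Dropping control mouse 1 made it 0.48 (limma adjusted p = 0.0466), in a fit that called 23.1% of all genes as higher. Dropping control mouse 3 made it 0.04 (adjusted p = 0.962). Wwtr1, which encodes TAZ, was at 5.68, 3.21 and 3.74 TPM against 6.07, 6.21 and 4.55 TPM. Its groups overlapped through non-targeting mouse 1 (log2 fold change 0.36, SE 0.22), and the fold change was 0.56 with that mouse left out and 0.22 with non-targeting mouse 2 left out. TPM are corrected for length, so levels can be set side by side, and Yap1 exceeded Wwtr1 in each library, by 2.57 to 3.79 times, with overlapping groups.

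Yap1 signal was divided between 2 main coding transcripts. ENSMUST00000086580.12 held 62.0% of its TPM and ENSMUST00000065353.13 held 37.2%. The second was at 8.54, 5.20 and 2.31 TPM in the controls and at 7.68, 8.09 and 2.25 TPM in the CRISPRi mice. It was low in mouse 3 of each group, and the groups overlapped. kallisto divides reads among overlapping transcripts by estimation, so such divisions are uncertain.

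Among the TEAD genes Tead3 was the most abundant and Tead1 the one whose groups were apart. Tead3 was at 3.07, 3.44 and 2.71 TPM in the controls and 3.22, 2.99 and 2.78 TPM in the CRISPRi mice, with complete overlap (log2 fold change -0.03, 95% interval -0.40 to 0.35). Tead1 was at 1.14, 0.646 and 0.533 TPM against 1.39, 1.62 and 1.45 TPM. Every CRISPRi mouse was above every control, and the highest control was non-targeting mouse 1 (log2 fold change 0.50, SE 0.18, limma adjusted p = 0.344). Tead2 means were 0.995 ± 0.432 and 1.19 ± 0.329 TPM (SD, n = 3 each) with overlap. Tead4 stayed under 0.18 TPM in every library.

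The division of TEAD RNA within a library does not depend on scaling between libraries. Tead1 made up 21.2%, 13.8% and 11.2% of summed Tead1 to Tead4 TPM in the controls and 22.5%, 29.0% and 25.4% in the CRISPRi mice. Tead3 made up 57.2%, 73.6% and 57.0% against 52.2%, 53.7% and 48.8%. Neither share overlapped between the groups. These were 2 of 16 within-library ratios chosen after the values were seen, each with an exact two-sided permutation p of 0.1 and 0.178 after adjustment over the 16, and that number of mice cannot pass a threshold of 0.05.

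The kinase core overlapped between the groups for every gene but Sav1. The scaffold gene Sav1 was at 5.03, 4.89 and 3.53 TPM in the controls and 5.35, 5.63 and 5.85 TPM in the CRISPRi mice. The groups were apart by a narrow margin, between 5.03 and 5.35 TPM (log2 fold change 0.28, SE 0.18, limma adjusted p = 0.464). The MST kinase genes had almost equal means, with Stk3 at 2.68 ± 0.776 and 2.68 ± 0.285 TPM and Stk4 at 3.43 ± 0.587 and 3.42 ± 0.593 TPM (SD, n = 3 each, controls first). Their 95% intervals of the log2 fold change were -0.43 to 0.47 and -0.44 to 0.43.

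The LATS kinase genes differed in where the CRISPRi mice lay against the controls. Lats1 was at 3.23, 2.44 and 1.73 TPM in the controls and 2.14, 2.51 and 2.56 TPM in the CRISPRi mice, inside the control range. Lats2 was at 3.71, 2.40 and 2.50 TPM against 4.16, 3.93 and 3.58 TPM. For Lats2 only non-targeting mouse 1 reached the CRISPRi range, as for 39.9% of all genes tested (log2 fold change 0.35, SE 0.19, limma adjusted p = 0.413). Leaving that mouse out gave 0.50 (adjusted p = 0.0349), in a fit that called 23.1% of all genes as higher. With median-of-ratios scaling as well, Lats2 had 0.24 (adjusted p = 0.220). Leaving out non-targeting mouse 2 instead, without rescaling, gave 0.27 (adjusted p = 0.809). The ratio of Lats2 to Lats1 overlapped between the groups (exact two-sided permutation p = 0.2, adjusted 0.291 over 16 ratios). The LATS-activating subunits Mob1a and Mob1b overlapped, with means of 8.17 ± 2.91 and 9.92 ± 1.17 TPM for Mob1a and of 4.18 ± 1.27 and 4.71 ± 0.506 TPM for Mob1b (SD, n = 3 each).

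Of the upstream regulators, Frmd6 and Wwc2 had groups apart. Nf2 encodes merlin, a membrane-linked tumour suppressor that recruits LATS, and was at 6.41, 4.86 and 4.23 TPM in the controls and 6.30, 6.49 and 6.66 TPM in the CRISPRi mice. Non-targeting mouse 1 alone reached the CRISPRi range, as for 39.9% of all genes tested (log2 fold change 0.29, SE 0.19). Leaving that mouse out gave 0.43 (limma adjusted p = 0.0455), in the fit that called 23.1% of all genes as higher. With median-of-ratios scaling as well, Nf2 had 0.14 (adjusted p = 0.463). Leaving out non-targeting mouse 2 instead, without rescaling, gave 0.27 (adjusted p = 0.809). Frmd6, a FERM domain gene placed upstream of the kinases, was at 1.06, 0.725 and 0.925 TPM against 1.62, 1.54 and 1.39 TPM (log2 fold change 0.41, SE 0.16, limma adjusted p = 0.350). The 2 genes of the KIBRA family differed in level and pattern. Wwc1, after Ajuba and Yap1 the most abundant component, had 15.4, 18.5 and 10.1 TPM in the controls and 14.7, 14.0 and 16.3 TPM in the CRISPRi mice, all inside the control range. Wwc2 was at 2.01, 1.42 and 1.45 TPM against 2.25, 2.07 and 2.34 TPM (log2 fold change 0.30, SE 0.17, limma adjusted p = 0.426).

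Genes whose products bind or restrain YAP, TEAD or LATS held the widest difference among the components, that of Ptpn14. PTPN14 is a phosphatase family protein that keeps YAP in the cytoplasm. Its gene was at 2.84, 0.402 and 1.98 TPM in the non-targeting mice and at 6.53, 4.90 and 4.35 TPM in the CRISPRi mice. Every CRISPRi mouse was above every control, and non-targeting mouse 2 was the lowest of the 6. The ratio of the means was 3.02, and the log2 fold change 1.30 (SE 0.35, limma unadjusted p = 0.00576, adjusted p = 0.323). The coding transcript ENSMUST00000097442.9 held 45.5% of its TPM and was at 1.04, 0.111 and 0.562 against 3.31, 2.31 and 2.23 TPM, again without overlap. A further 35.7% lay in ENSMUST00000148129.2, annotated as a processed transcript, whose groups were apart as well, while the coding ENSMUST00000027898.7 overlapped.

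Ajuba encodes a LIM domain protein that binds LATS and limits its activity. It was at 16.5, 7.27 and 9.61 TPM in the controls and at 23.1, 21.9 and 14.5 TPM in the CRISPRi mice. The groups overlapped because non-targeting mouse 1 exceeded CRISPRi mouse 3 (ratio of means 1.78, log2 fold change 0.82, SE 0.30, limma unadjusted p = 0.0241, adjusted p = 0.344). Leaving that control out gave 1.12 (limma adjusted p = 0.0269), in the fit that called 23.1% of all genes as higher. With median-of-ratios scaling as well, Ajuba had 0.80 (adjusted p = 0.0821). Leaving out non-targeting mouse 2 instead, without rescaling, gave 0.58 (adjusted p = 0.766). Of Ajuba TPM, 66.7% was assigned to a transcript annotated as a retained intron, and the coding transcript was at 6.43, 2.14 and 0.887 TPM in the controls and 9.16, 7.52 and 4.74 TPM in the CRISPRi mice. Amotl2, an angiomotin family gene whose protein holds YAP at junctions, was at 2.72, 2.22 and 1.86 TPM against 3.85, 3.35 and 2.71 TPM. Non-targeting mouse 1 and CRISPRi mouse 3 were nearly equal. Its relatives Amot and Amotl1 stayed under 1 TPM in every library with overlapping groups, and Vgll4, which competes with YAP for TEAD, had means of 4.57 ± 1.64 and 4.98 ± 0.599 TPM (SD, n = 3 each). Of Vgll4 TPM, 78.5% was assigned to transcripts not annotated as protein coding.

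**Figure D2:**
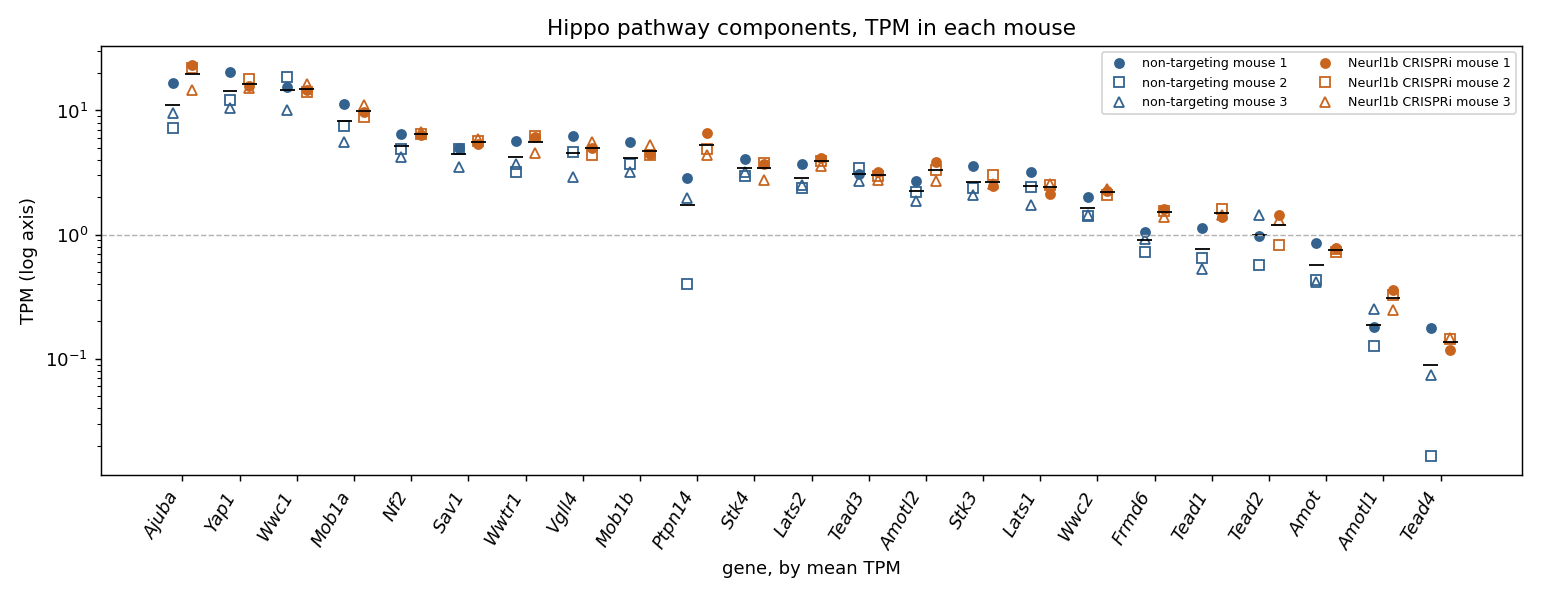
TPM (log y axis) of the 23 components in each mouse, ordered along the x axis by mean level, with non-targeting mice in blue and Neurl1b CRISPRi mice in orange, short black lines at the group means and a dashed line at 1 TPM. Ajuba, Yap1 and Wwc1 are highest at means of about 15 TPM (15.5, 15.3 and 14.8), and for Ptpn14, Tead1, Frmd6, Sav1 and Wwc2 no blue point reaches the orange ones.

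Of the 4 targets grouped as membrane proteins (Nt5e, Axl, Myof and F3), 3 were higher without overlap and 1, F3, was lower. Over all genes above 0 the shares were 10.9% higher and 3.51% lower. Nt5e encodes CD73, the cell surface enzyme that makes adenosine from AMP, and was the most abundant of the 15. It was at 20.8, 8.88 and 8.80 TPM in the non-targeting mice and at 34.8, 27.4 and 24.2 TPM in the CRISPRi mice. All CRISPRi values exceeded all controls, with non-targeting mouse 1 between the other controls and the CRISPRi mice. The ratio of the means was 2.25 and the log2 fold change 1.20 (SE 0.32, 95% interval 0.47 to 1.93, limma unadjusted p = 0.00511, adjusted p = 0.316). One coding transcript, ENSMUST00000034992.8, carried 99.9% of this signal, so the value does not rest on a division between transcripts.

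Axl, a receptor tyrosine kinase gene, showed the tightest controls of the targets with a mean above 1 TPM. It was at 1.67, 1.60 and 1.78 TPM in the controls and at 3.50, 2.60 and 3.01 TPM in the CRISPRi mice, without overlap (ratio of means 1.80, log2 fold change 0.58, SE 0.17, limma adjusted p = 0.323). Here non-targeting mouse 1 lay with the other controls. Myof, which encodes the membrane repair protein myoferlin, was at 0.823, 0.363 and 0.895 TPM against 1.25, 1.56 and 1.69 TPM (log2 fold change 0.57, SE 0.19, limma adjusted p = 0.339). A transcript annotated for nonsense-mediated decay was given 52.1% of Myof TPM. F3, tissue factor, the trigger of coagulation, was the 1 member lower without overlap, at 0.978, 1.30 and 1.19 TPM against 0.604, 0.797 and 0.304 TPM. It was below the filter, and in the fit without a filter its log2 fold change was -0.47 (SE 0.15, limma unadjusted p = 0.0211, adjusted p = 0.479).

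The matricellular genes Ccn1 and Ccn2, the most used readouts of YAP, differed in how far the groups were apart. Ccn1 was at 14.8, 3.05 and 6.12 TPM in the controls and at 17.4, 17.9 and 8.37 TPM in the CRISPRi mice. Non-targeting mouse 1 exceeded CRISPRi mouse 3, and the groups overlapped (ratio of means 1.82, log2 fold change 0.95, SE 0.48, limma unadjusted p = 0.0820, adjusted p = 0.404). That fold change became 1.47 when non-targeting mouse 1 was left out and 0.48 when non-targeting mouse 2 was. Ccn2 was far lower, at 0.837, 0.384 and 0.656 TPM against 1.72, 1.28 and 1.14 TPM, without overlap (ratio of means 2.21, log2 fold change 0.55, SE 0.18, limma unadjusted p = 0.0144, adjusted p = 0.339). Crim1, a regulator of BMP ligands, was at 3.20, 1.07 and 1.36 TPM against 4.63, 3.86 and 2.83 TPM. It overlapped through non-targeting mouse 1 only, as did 39.9% of all genes tested (log2 fold change 0.78, SE 0.29, limma unadjusted p = 0.0249, adjusted p = 0.344). Without that mouse the fold change was 1.09 (adjusted p = 0.0213), in the fit that called 23.1% of all genes as higher. With median-of-ratios scaling as well it was 0.86 (adjusted p = 0.0545). Leaving out non-targeting mouse 2 instead, without rescaling, gave 0.58 (adjusted p = 0.775). Fjx1 stayed under 0.08 TPM in every library.

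Target genes of signalling and of the nucleus were mixed. Asap1, an Arf GTPase-activating protein gene, had means of 1.86 ± 0.796 and 2.80 ± 0.513 TPM (SD, n = 3 each), with non-targeting mouse 1 inside the CRISPRi range. Dlc1 and Nuak2, an AMPK-related kinase gene, overlapped, with log2 fold changes of 0.04 and -0.09. The DNA damage gene Gadd45a was at 13.2, 5.88 and 7.30 TPM in the controls, and its CRISPRi values from 8.13 to 12.6 TPM lay between them. Ankrd1 was at 0.275, 0.0600 and 0.374 TPM against 0.189, 0.638 and 0.374 TPM, so this classical target overlapped at a level where the precision is unknown. Rbms3, an RNA-binding protein gene, was apart at 0.382, 0.118 and 0.379 TPM against 0.757, 0.492 and 0.409 TPM. A transcript not annotated as protein coding was given 47.7% of Rbms3 TPM. Arhgef17 stayed under 0.19 TPM in every library.

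**Figure D3:**
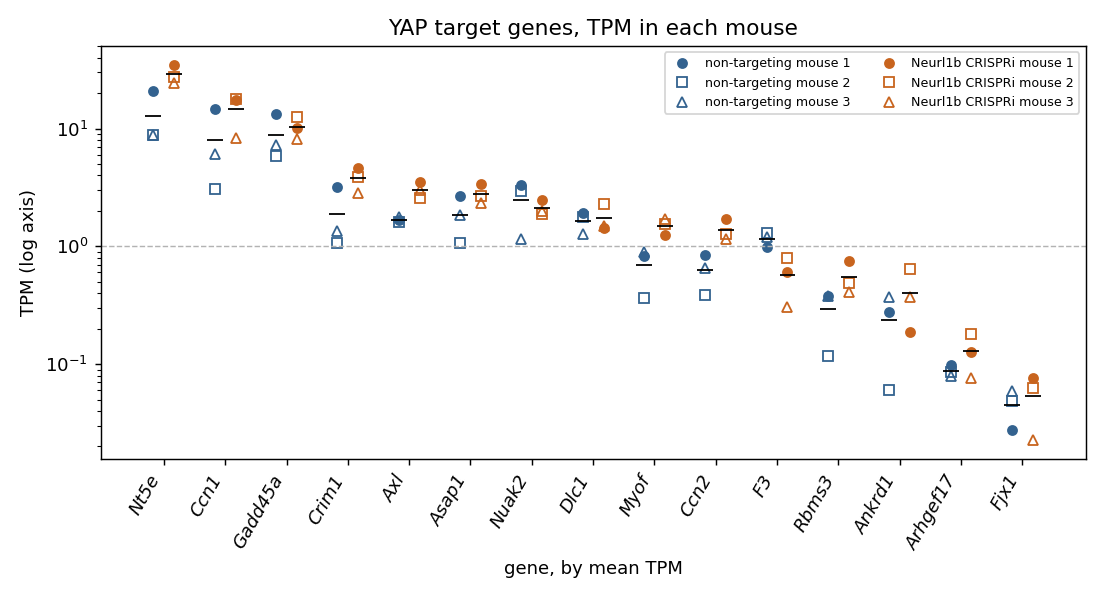
TPM (log y axis) of the 15 target genes in each mouse, ordered along the x axis by mean level, drawn as for the components with non-targeting mice in blue and Neurl1b CRISPRi mice in orange. For Nt5e, Axl, Myof, Ccn2 and Rbms3 all orange points lie above all blue ones, for F3 below them, and for Ccn1 and Crim1 the filled blue point of non-targeting mouse 1 reaches the orange ones.

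Ratios to Yap1 within a library show the same members free of scaling. Nt5e relative to Yap1 was 0.731 to 1.03 in the controls and 1.53 to 2.23 in the CRISPRi mice. Ptpn14 relative to Yap1 was 0.0331 to 0.188 against 0.274 to 0.418, and Ajuba 0.598 to 0.911 against 0.955 to 1.48. None of these 3 overlapped, while Ccn1 (0.251 to 0.729 against 0.551 to 1.12) and Axl (0.0824 to 0.168 against 0.145 to 0.224) did. These belong to the same 16 ratios, with an adjusted exact permutation p of 0.178 for the ratios without overlap, and they share Yap1 as denominator.

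The libraries used, their weights and their scaling all moved the number of members called. Without non-targeting mouse 1, 12 of the 30 tested members passed an adjusted p of 0.05 in limma, all higher, in a fit where 23.1% of all genes passed as higher and 2.24% as lower. They were the components Yap1, Tead1, Lats2, Nf2, Frmd6, Ajuba and Ptpn14 (7 of 20) and the targets Ccn1, Ccn2, Axl, Nt5e and Crim1 (5 of 10). With median-of-ratios scaling as well, 1 member passed, Nt5e, against 1.74% of all genes as higher and 2.74% as lower. Its log2 fold change there was 1.26 (SE 0.16, limma adjusted p = 0.0325), and its value without rescaling was 1.58 (adjusted p = 0.0173). In that rescaled fit Crim1 had 0.86 (limma adjusted p = 0.0545), Ptpn14 1.37 (adjusted p = 0.0746) and Yap1 0.15 (adjusted p = 0.438). With all 6 mice kept but weighted by how well each follows the fit (array weights), 11 members passed, all higher, against 18.5% of all genes higher and 2.33% lower. No member passed when any other single mouse was left out (leaving out control mouse 2 let 0.0282% of all genes pass as higher, and leaving out control mouse 3 let 0% pass). At an unadjusted p below 0.05 the members counted 20 without non-targeting mouse 1, 3 without control mouse 2 and 5 without control mouse 3. Over all genes the shares were 39.7%, 4.11% and 5.17% higher and 4.52%, 2.46% and 3.48% lower in the same order. Without CRISPRi mouse 1, 2 or 3 the members counted 5 of 29, 4 of 29 and 6 of 28 tested. The shares of all genes there were 5.51%, 6.86% and 10.7%, both directions together.

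**Figure D4:**
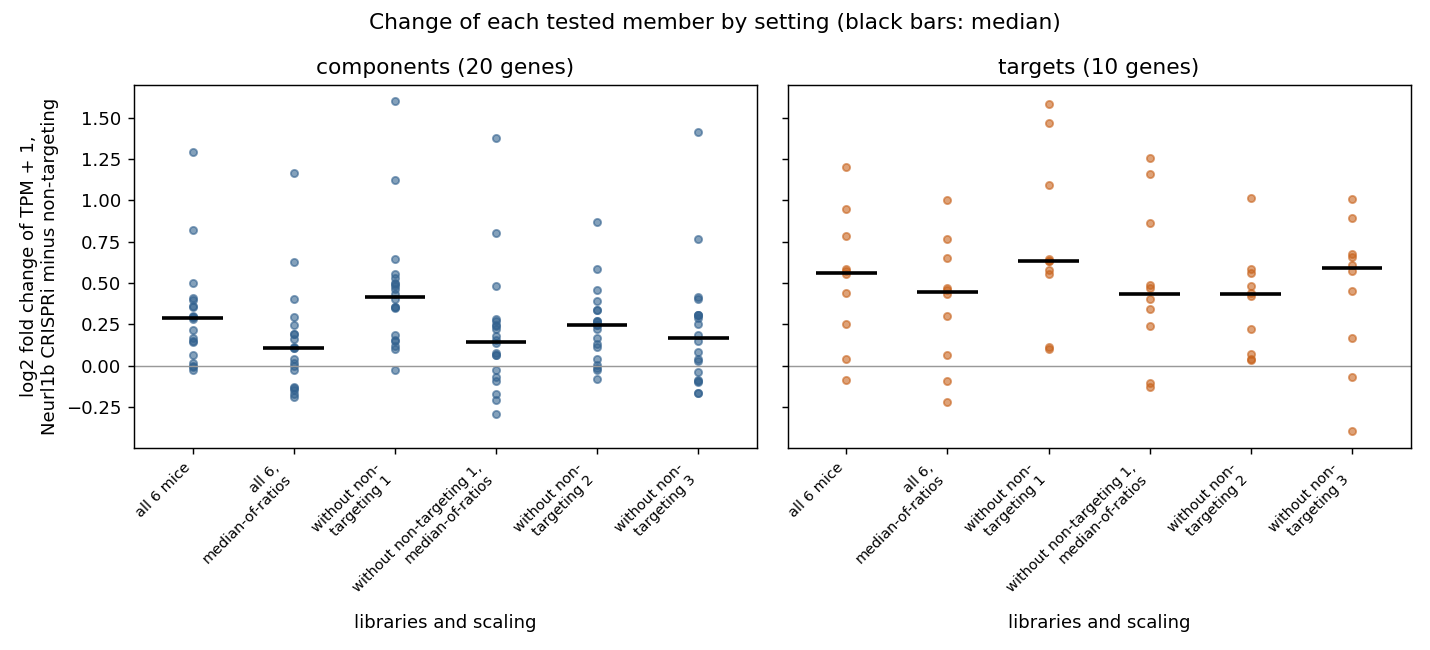
Log2 fold change of TPM + 1 (y axis) of each tested gene under 6 choices of libraries and scaling (x axis), with 20 components on the left in blue, 10 targets on the right in orange and black bars at the medians. The target median lies between 0.43 and 0.63 under these choices, and the component median between 0.10 and 0.42.

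Among the marker lists of other liver cells, only the stellate cell and fibroblast sum and the mesothelial sum were apart between the groups. The stellate cell and fibroblast list (10 genes, none at 0 in all libraries) summed to 20.2, 13.8 and 29.1 TPM in the controls and to 47.6, 47.4 and 34.6 TPM in the CRISPRi mice, without overlap. Of its genes, 5 were higher without overlap (Lrat, Des, Acta2, Reln and Dcn) and 0 lower, against 10.9% higher and 3.51% lower over all genes above 0. Macrophage markers (9 genes, none at 0) summed to 64.0 to 126 TPM in the controls and 100.2 to 146 TPM in the CRISPRi mice, and 4 were higher without overlap and 0 lower. Endothelial markers (8 genes) ranged from 17.3 to 23.9 and from 18.4 to 27.3 TPM, cholangiocyte markers (8 genes) from 20.7 to 33.2 and from 25.5 to 29.5 TPM, and lymphocyte and neutrophil markers (8 genes) from 8.81 to 49.1 and from 3.27 to 16.7 TPM, with sums that overlapped. Single genes of these lists were apart, 3 higher and 1 lower among the endothelial markers and 1 in each direction among the cholangiocyte and among the lymphocyte and neutrophil markers. The mesothelial list (4 genes) summed to 0.439 to 2.92 against 3.21 to 4.35 TPM, with Krt19, which the cholangiocyte list also holds, the largest part in each library. Nt5e, Axl, Ccn1, Ccn2 and Myof are also known from stromal or endothelial cells, and the part of carry-over in their values was not tested. In ribosomes pulled from whole liver lysate, more cells of a type, more RNA per cell and more carry-over cannot be told apart.

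Other genes of the pathway gave a background to the members. Of 35 further kinases, adaptors and polarity genes, 25 were tested and 0 passed in limma, with 2 higher and 0 lower at an unadjusted p below 0.05 (median log2 fold change 0.16), where all genes gave 10.1% higher and 3.19% lower. Those with the smallest p were the scaffold gene Rassf1, at 5.03 ± 0.549 and 7.36 ± 0.551 TPM (log2 fold change 0.47, limma adjusted p = 0.344), and the α-catenin gene Ctnna1, at 36.8 ± 22.0 and 61.7 ± 4.77 TPM (SD, n = 3 each). Of 17 genes of STRIPAK, a phosphatase complex that inactivates MST kinases, 14 were tested, with 0 passing in limma and 0 below 0.05 before adjustment, against the same shares over all genes. Its genes with the smallest p, Ppp2cb and Strn4, had log2 fold changes of 0.33 and 0.40.

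A further list held 18 more genes reported as YAP outputs, of which 12 were tested and 0 passed in limma. At an unadjusted p below 0.05 there were 5 higher and 0 lower (median log2 fold change 0.45), against 10.1% and 3.19% of all genes. With median-of-ratios scaling there were 5 higher and 1 lower, against 6.44% and 6.66%. The keratin genes Krt18 and Krt8, both normal hepatocyte genes, had the smallest p. Krt18 was at 654, 259 and 405 TPM in the controls and 782, 749 and 888 TPM in the CRISPRi mice, and Krt8 at 863, 274 and 391 TPM against 1021, 884 and 1096 TPM. Both were apart, with non-targeting mouse 1 the highest control (log2 fold changes 0.97 and 1.14, limma adjusted p = 0.330 and 0.339).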

How the data were processed

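Polyadenylated RNA bound to GFP-tagged ribosomes was sequenced from 6 livers, 3 per guide. The deposited values are TPM for 117486 transcripts, made by the authors with kallisto on mm39 per the submitters' processing notes. For the kallisto version, transcript set and filters: not given in the sources used here. Columns sum to about 1000000, so depth is unknown and no counting interval is given. The columns carry the sample titles, from which guide and mouse number were taken.

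TPM were summed by symbol (168 transcripts without one were left out). The 10598 genes with a mean of at least 1 TPM were compared as log2(TPM + 1) values, computed from the deposited TPM, in limma 3.58.1 (R 4.3.3) with a two-sided test, a trended prior and Benjamini-Hochberg adjustment over all of them (threshold 0.05). Such fold changes understate the change of low genes. Ratios are of mean TPM. Members below the filter come from the same fit without it. The limma step was first tested on simulated data. Transcript types are from GENCODE vM21 (GRCm38), matched by identifier.

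Members and lists were chosen with earlier results of these data known. Named are all 38 members, Neurl1b, the 2 genes with the smallest p of each other pathway list, and markers. Of the markers, those named singly were chosen after their values were seen. Pals1 and Frmd1 of those lists and the marker Tf were not analysed here. Alternatives were pseudocounts of 0.1 and 5, no filter or 5 TPM, median-of-ratios or quantile scaling, removal of mitochondrial genes, array weights, a constant prior, a replicate block by mouse number, and each mouse left out.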

Additional observations from a re-analysis of the deposited data

How the results depend on the processing

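Genes called over the whole table numbered 2 and became 0 with a pseudocount of 5, no filter or quantile normalization, 1 at a mean of at least 5 TPM, 2210 with array weights, 0 to 2673 with 1 mouse left out, and 473 when non-targeting mouse 1 was dropped and libraries were rescaled by median of ratios. Called members numbered 0 and became 11 with array weights, 0 to 12 with 1 mouse left out and 1 in that last fit. Members at an unadjusted p below 0.05 numbered 9 (beside 13.3% of all genes). They became 2 of 9 at 5 TPM (13.2%) and 18 with array weights (42.2%). With 1 mouse left out they ran from 3 without control mouse 2 (6.57%) to 20 without control mouse 1 (44.2%). The target median of 0.56 became 0.93 with a pseudocount of 0.1, 0.19 with one of 5, 0.26 without a filter and 0.95 at 5 TPM. The component median of 0.29 became 0.087 with quantile normalization. The Neurl1b ratio stayed between 0.279 and 0.400. The cause of these shifts was not tested, apart from the fewer genes that pass 5 TPM.

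Small log2 fold changes turned sign. With median-of-ratios scaling these were Stk3 (-0.13), Mob1b (-0.0044), Vgll4 (-0.028), Wwc1 (-0.13) and Dlc1 (-0.094), and with quantile normalization Tead2 (-0.050), Stk3 (-0.17), Mob1b (-0.030), Vgll4 (-0.050), Wwc1 (-0.12) and Dlc1 (-0.14). Lats1 turned to 0.0035 with a pseudocount of 0.1, and Lats1 (0.12), Stk4 (0.15) and Nuak2 (0.0050) turned with array weights. With non-targeting mouse 1 dropped and median-of-ratios rescaling, Tead2 (-0.026), Stk3 (-0.068), Wwc1 (-0.21) and Dlc1 (-0.11) did. With 1 mouse left out the ranges that crossed 0 were -0.012 to 0.30 for Tead2, -0.091 to 0.039 for Tead3, -0.17 to 0.15 for Lats1, -0.099 to 0.18 for Stk3, -0.079 to 0.11 for Stk4, -0.090 to 0.35 for Vgll4, -0.17 to 0.24 for Wwc1, -0.098 to 0.11 for Dlc1 and -0.40 to 0.10 for Nuak2.

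The mice share numbers across groups, and the labels state no pairing. Deviations of same-numbered mice correlated across genes at 0.061, -0.096 and -0.28, and those of differently numbered mice at -0.17 to 0.22. No pairing was evident, though so few mice cannot exclude one. With the replicate block 2 genes and 0 members were called, and 9 members had an unadjusted p below 0.05. TPM keep no depth, so members under 1 TPM have unknown precision.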
